A study of Homo sapiens with 14 samples.

Results

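The 10 polyamine genes ODC1, OAZ1, OAZ2, AZIN1, AMD1, SRM, SMS, SAT1, SMOX and PAOX were followed through total mRNA and polysome fractions of MDA-MB-231 cells with and without silencing of DAP5. They were chosen by name, as genes that make, break down or regulate polyamines, and all 10 were found among the 58434 gene symbols of the count table. MDA-MB-231 is a human breast cancer cell line of mesenchymal character, and DAP5, encoded by EIF4G2, is a relative of the initiation factor eIF4G that lacks the part which binds the cap-binding protein eIF4E. MB-231-shNSi cells carried a non-silencing shRNA and MB-231-shDAP5 cells an shRNA against DAP5. Both constructs were stable and doxycycline-inducible, and all cells received doxycycline at 1 µg/ml for 6 days, controls included. Each cell line was sampled as 2 cultures, and each culture gave a total mRNA, a heavy polysome (well-translated) and a light polysome (poorly translated) library. The shNSi cultures also gave a moderate polysome library, which makes 14 libraries. The study describes its replicate sets as independently performed, and p-values measure the spread between these cultures alone. With 2 cultures against 2, an exact permutation test cannot go below a two-sided p of 0.333, so tests rest on models fitted across all genes.

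Polyamines are small, positively charged metabolites that bind RNA and are needed for growth. ODC1 makes putrescine from ornithine, AMD1 prepares the aminopropyl donor, and SRM and SMS use that donor to make spermidine and spermine. The antizymes OAZ1 and OAZ2 bind ornithine decarboxylase, lead it to the proteasome without ubiquitin and restrain polyamine uptake, and AZIN1 is an inactive relative of ornithine decarboxylase that binds antizyme in its place. SAT1 acetylates polyamines for export or for oxidation by PAOX, and SMOX oxidizes spermine directly. The pathway is known for control at translation, through ribosome frameshifting on antizyme mRNA and through short upstream reading frames in others such as AMD1.

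The sequences below are shown because they are the best known translational control elements of these mRNAs. They come from the GRCh38 genome with the GENCODE release 29 transcripts, and not from the hg19 build on which the reads had been placed. The capitals in both antizyme sequences mark the codon TCC and the stop codon TGA, where ribosomes slip forward by 1 base, at chr19:2271410-2271475 on the plus strand for OAZ1 and at chr15:64691483-64691548 on the minus strand for OAZ2, both within coding exons.
OAZ1: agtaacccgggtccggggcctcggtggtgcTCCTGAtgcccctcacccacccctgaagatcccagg
OAZ2: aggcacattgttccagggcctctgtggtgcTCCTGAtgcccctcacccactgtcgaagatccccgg
Of the 66 bases, 53 were identical between OAZ1 and OAZ2, with 22 of 30 before and 25 of 30 after the capitals. The first reading frame held 68 codons in OAZ1 and 32 in OAZ2, and the shifted frame a further 160 and 157 codons. In AMD1 the 5′ untranslated region held a reading frame of 6 codons at chr6:110874796-110874816 on the plus strand, which began 26 bases from the transcript start and ended 289 bases before the main start codon. The capitals mark its start and stop codons.
AMD1: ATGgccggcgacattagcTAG
RNA sequencing reads counted per gene cannot tell shifted from unshifted antizyme, nor a ribosome on the upstream frame from one on the main frame. What was measured is the share of each mRNA among the reads of each gradient fraction.

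The share of polyamine genes with an upstream ATG triplet was near that of all coding genes. Of the 10 chosen transcripts, 6 held at least 1 (AZIN1 with 6, ODC1, OAZ2 and SAT1 with 2 each, AMD1 and SMS with 1 each), against 55.5% of 18138 coding genes. The 5′ untranslated region of AZIN1 was 1164 bases long and that of ODC1 511 bases, while OAZ1, SRM and PAOX had 79, 81 and 83 bases against a median of 198 over coding genes. The coding sequences of SAT1, OAZ2, OAZ1 and SRM were short, at 513, 567, 684 and 906 bases against a median of 1275. Those of AMD1, SMS, AZIN1, ODC1, PAOX and SMOX had 1002, 1098, 1344, 1383, 1533 and 1665 bases.

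Library totals ranged from 25899838 to 30795910 counts, and replicate cultures differed beyond counting noise in every group. Levels are given as CPM, counts relative to the library total, scaled by the trimmed mean of M-values (TMM) over all 14 libraries. CPM compare shares of libraries and not amounts of RNA per fraction, and fewer cells with an mRNA cannot be told apart from less of it per cell. The TMM factors of the shNSi heavy libraries were 0.763 and 0.703, and those of the other 12 libraries 0.899 to 1.16, so the shNSi heavy libraries stood apart in composition. EIF4G2 itself had 1391 and 1358 CPM in shNSi total mRNA and 525 and 730 CPM in shDAP5 total mRNA. It fell by 1.11 on the log2 scale (SE 0.18, adjusted p = 0.0172, the quasi-likelihood test of edgeR, adjusted after Benjamini and Hochberg over all genes tested, as in every adjusted p below), and without shDAP5 replicate 1 the log2 change was -0.90 with an adjusted p of 0.680 by edgeR. The EIF4G2 call held in 9 of 13 alternatives, and was also lost with library sizes alone (0.0501 by edgeR), coding-length offsets (0.0711 by edgeR) and all 14 libraries in 1 fit (0.443 by edgeR), with log2 changes from -1.37 to -0.90 over the 13. VIM, CD44, EGFR, AXL and CAV1, genes known to be expressed in this line, were detected in all 14 libraries, ESR1 and CDH1 stayed under 1 CPM, PGR and HBB were at 0, and PTPRC and ALB stayed under 1 CPM. The shDAP5 light libraries were titled light but their codes carried the letters used for the shNSi moderate pool, and the total libraries of shDAP5 carried the title total polysome. Both were taken by their titles, so a difference in how fractions were pooled cannot be told apart from an effect of silencing.

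In shNSi total mRNA the polyamine genes covered a wide range of levels. Per kilobase of coding sequence, OAZ1 was highest at 867 ± 11.98 CPM (SD, n = 2), followed by SRM at 368 ± 75.9. SMS (216 ± 28.7), ODC1 (204 ± 8.89) and AZIN1 (188 ± 28.8) had overlapping ranges of 1 SD, as did OAZ2 (142 ± 29.95), SAT1 (127 ± 10.7) and AMD1 (120 ± 12.6). The spermine oxidase mRNA SMOX was far lower at 5.42 ± 0.981, and PAOX at 2.79 ± 0.243 was the lowest. The counts of both oxidases were the lowest of the 10 genes. Counted reads may also come from untranslated regions, which coding length leaves out, so the order of genes with close values depends on the length used. The chosen transcripts of AZIN1, AMD1 and ODC1 had 4721, 3438 and 2653 bases, and those of OAZ2, SMS and SAT1 had 1934, 1837 and 1065.

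**Figure D1:**
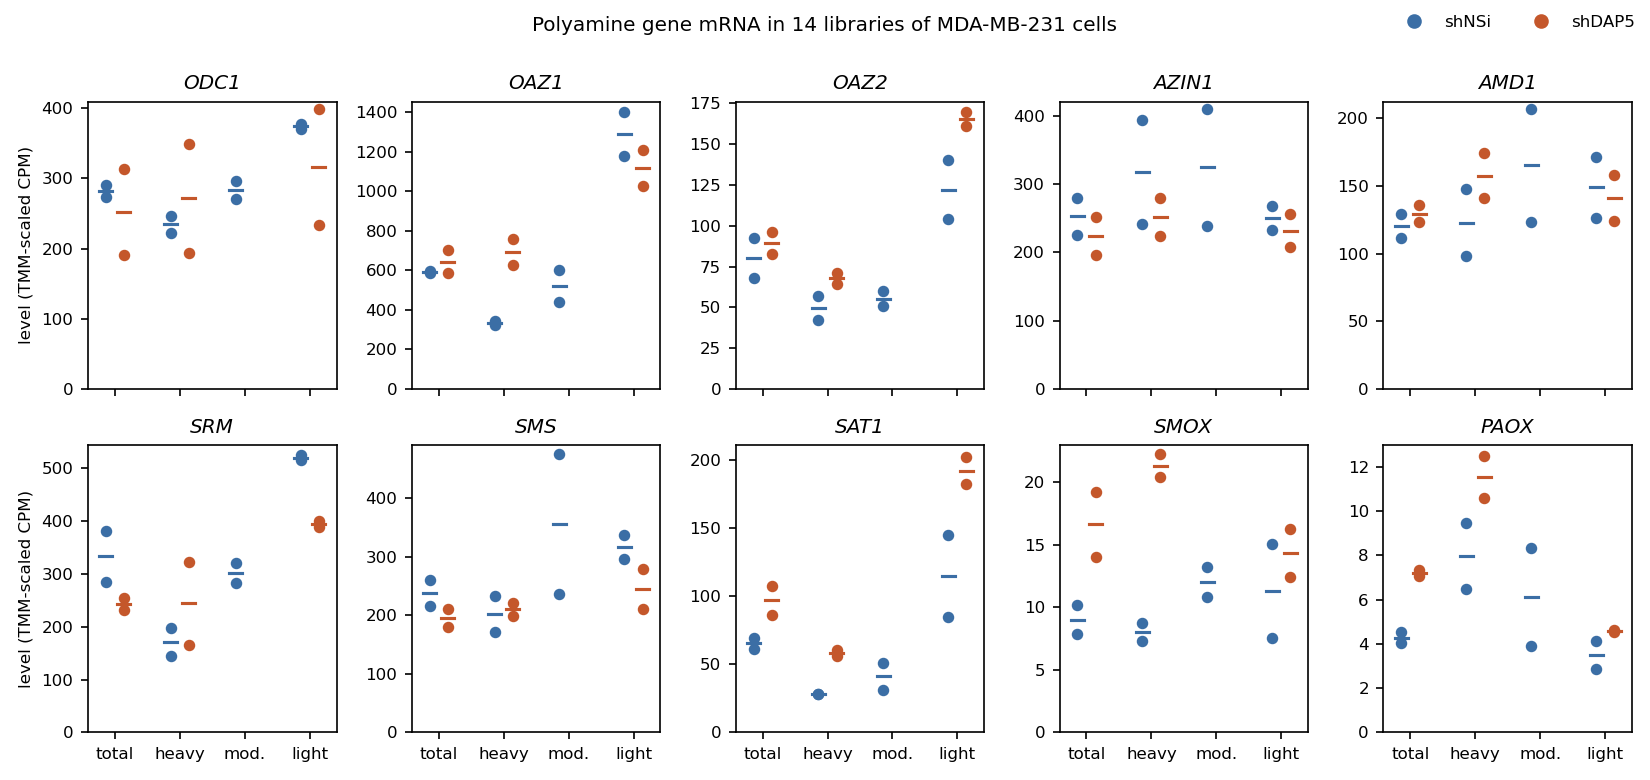
Level of each polyamine gene (TMM-scaled CPM, linear axis from 0, own scale per gene) in total mRNA and in heavy, moderate (mod., shNSi only) and light polysomes, with 1 point per culture and a line at the mean of 2 cultures. OAZ1 and SRM had their highest levels in light polysomes, and SAT1, SMOX and PAOX were higher in both shDAP5 cultures than in both shNSi cultures in total mRNA.

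In total mRNA no polyamine gene passed the adjusted threshold of 0.05, and the 3 catabolic genes had the largest increases. Of 14992 genes tested, 0.0867% were called higher and 0.267% lower, so few genes of any kind were called. SMOX had 7.86 and 10.2 CPM in the shNSi cultures and 19.2 and 14.02 CPM in the shDAP5 cultures. SAT1 had 69.2 and 61.5 CPM against 108 and 86.4 CPM. PAOX had 4.55 and 4.02 CPM against 7.35 and 7.06 CPM. For all 3 genes both shDAP5 cultures lay above both shNSi cultures, a pattern found in 20.04% of all genes tested. The log2 changes were 0.91 (SE 0.25) for SMOX, 0.78 (SE 0.28) for PAOX and 0.60 (SE 0.19) for SAT1, with adjusted p-values from edgeR of 0.127, 0.259 and 0.181. SMOX passed in 1 of 13 alternatives, with no filter on low counts (0.88, adjusted p = 0.0293 by edgeR).

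SRM and SMS, the genes of the last steps of synthesis, were not called in total mRNA either. SRM had 285 and 382 CPM in shNSi and 232 and 255 CPM in shDAP5 cultures, a log2 change of -0.43 (SE 0.18, adjusted p = 0.366 by edgeR). SMS had 260.0 and 215 CPM against 180.1 and 211 CPM, a log2 change of -0.26 (SE 0.18, adjusted p = 0.636 by edgeR). The groups did not overlap for either gene, as for 22.2% of all genes tested in the lower direction. ODC1, the first enzyme of the pathway, had 273 and 291 CPM in shNSi and 191 and 313 CPM in shDAP5 total mRNA, so that the shDAP5 cultures lay on either side of the shNSi cultures. ODC1 (-0.14), AZIN1 (-0.15), AMD1 (0.13), OAZ1 (0.15) and OAZ2 (0.18) had overlapping groups and log2 changes smaller than their standard errors of 0.17 to 0.21. The median log2 change of the 10 genes was 0.14, beside 0.01 for all genes, and 3 genes were higher and 1 lower at an unadjusted p under 0.05, beside 748 higher and 1051 lower of 14992 genes.

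The next question was how the shares of these mRNAs in light and heavy polysome libraries compared before silencing. In shNSi cells most of the 10 took a smaller share of heavy than of light libraries. SAT1, OAZ1, SRM, OAZ2, ODC1 and SMS, 6 of 10, were lower in heavy than in light polysomes past the threshold, and PAOX was higher, while 31.1% of 15878 genes were called lower and 30.5% higher. With library sizes alone or limma, which shifted the median of all genes from -0.15 to -0.59 and -0.28, 8 were lower and 0 higher. The shares of all genes called under these settings are not given here, and the 31.1% and 30.5% do not apply to them.

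Both antizyme mRNAs took larger shares of light than of heavy libraries. OAZ1 had 1401 and 1181 CPM in shNSi light and 324 and 345 CPM in shNSi heavy polysomes, with 602 and 440.5 CPM in the moderate pool between them. Its heavy over light change was -2.07 on the log2 scale (SE 0.39, adjusted p = 0.000144 by edgeR). OAZ2 had 140.2 and 104 CPM in light and 42.3 and 57.2 CPM in heavy polysomes, a log2 change of -1.42 (SE 0.31, adjusted p = 0.000538 by edgeR). In both antizymes the light and heavy libraries were separate. With offsets for coding length the OAZ2 difference was -0.018 (adjusted p = 0.959 by edgeR) and no longer called, and OAZ1 stood at -1.01 and was called. AZIN1, which counters antizyme, had 269 and 232 CPM in light and 395 and 242 CPM in heavy polysomes, and these overlapped.

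The acetyltransferase SAT1 had 145 and 85.1 CPM in light and 28.2 and 28.5 CPM in heavy polysomes, a log2 change of -2.10 (SE 0.31, adjusted p = 1.3e-05 by edgeR). SRM had 525 and 515 CPM in light and 144 and 198 CPM in heavy polysomes, a log2 change of -1.75 (SE 0.37, adjusted p = 0.000369 by edgeR). Offsets for coding length took SAT1 to -0.52 (adjusted p = 0.0801 by edgeR), which is no longer called, while SRM was called under all 10 alternatives. ODC1 (378 and 370.4 CPM against 247 and 223 CPM) and SMS (337 and 296 CPM against 232 and 172 CPM) had log2 changes of -0.80 (SE 0.33) and -0.79 (SE 0.32). Their adjusted p-values from edgeR were 0.0396 and 0.0392. The ODC1 call held in 5 of 10 alternatives and was lost with no filter and without each of the 4 cultures in turn, and the SMS call held in 6 of 10, being lost with no filter, without shNSi replicate 2 and without either shDAP5 culture (adjusted p up to 0.131 and 0.134 by edgeR). PAOX, the one gene called in the other direction, had 2.88 and 4.14 CPM in light and 9.47 and 6.49 CPM in heavy polysomes, a log2 change of 1.05 (SE 0.34, adjusted p = 0.0102 by edgeR). The PAOX call was lost without shNSi replicate 1 and with offsets for coding length.

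In shDAP5 cells 3 of the 10 genes differed between heavy and light polysomes. OAZ2 (log2 change -1.31, SE 0.31, adjusted p = 0.00244) and SAT1 (-1.75, SE 0.31, adjusted p = 0.000391) were lower in heavy polysomes and PAOX (1.30, SE 0.33, adjusted p = 0.00398) higher by edgeR, against 19.9% of all genes lower and 19.8% higher. With library sizes alone or limma 4 were lower and 1 higher, settings for which no share of all genes is given here. SRM at -0.80 (SE 0.36) missed the adjusted threshold, at 0.0839 by edgeR, and passed it in 6 of 10 alternatives (-0.25 without shDAP5 replicate 1 and -1.31 without shDAP5 replicate 2, neither called). The PAOX call was lost without shDAP5 replicate 2, and leaving out either shDAP5 culture left 1 gene lower.

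The change in position between the cell lines was tested directly, and no polyamine gene passed the adjusted threshold, against 1.54% of all genes higher and 5.21% lower. OAZ1 had log2 heavy over light ratios of -2.11 and -1.77 in the shNSi cultures and -0.95 and -0.44 in the shDAP5 cultures. SMOX had -0.04 and -0.78 against 0.33 and 0.84. Both pairs were separate, as were those of ODC1, AMD1, SRM and SMS, all toward heavy, a pattern of 23.7% of all genes. The tested differences were 1.35 for OAZ1 (SE 0.54, adjusted p = 0.122 by edgeR) and 1.09 for SMOX (SE 0.43, adjusted p = 0.111 by edgeR). They were the 2 of 10 genes under an unadjusted p of 0.05, beside 1596 higher and 2389 lower of 15878 genes, and AZIN1 at -0.09 (SE 0.47) had the lowest value of the 10. DESeq2 called 1 of the 10 genes higher, limma 1 and library sizes alone 2. The shares of all genes called under these settings are not given here. Since the shDAP5 light libraries carry the code of the moderate pool, the shNSi ratio of heavy to moderate was also set beside the shDAP5 values. That ratio was -0.89 and -0.35 for OAZ1, -1.15 and -0.51 for SRM and -0.26 and -0.28 for ODC1, all overlapping with the shDAP5 heavy over light ratios. For SMOX (-0.57 and -0.60), AMD1 (-0.49 and -0.33) and SMS (-1.03 and -0.46) the shNSi values stayed below those of both shDAP5 cultures. SAT1 and OAZ2 went the other way. Their shNSi heavy to moderate values (-0.86 and -0.13, -0.50 and 0.16) lay above the shDAP5 heavy over light values (-1.75 and -1.69, -1.25 and -1.32). AZIN1 and PAOX overlapped.

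**Figure D2:**
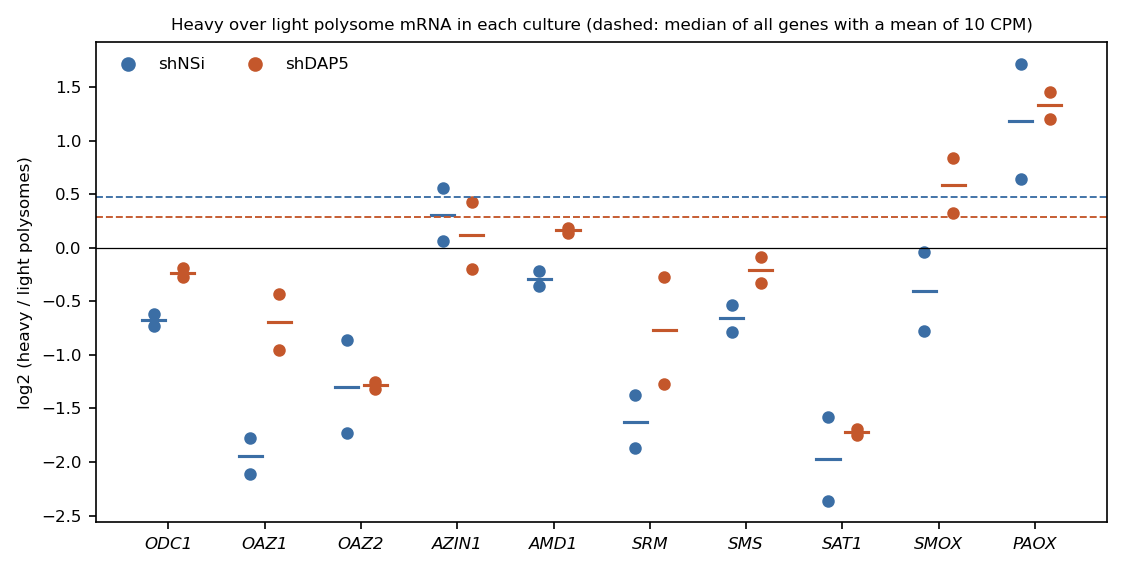
Log2 ratio of heavy to light polysome CPM for each polyamine gene in each culture (points) with the mean of 2 cultures (short lines), and the median over 9389 genes with a mean of at least 10 CPM (dashed lines, 0.47 in shNSi and 0.29 in shDAP5). SAT1, OAZ1, SRM and OAZ2 lie lowest in shNSi cultures, and the points of ODC1, OAZ1, AMD1, SRM, SMS and SMOX do not overlap between cell lines.

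In heavy polysomes 3 of the 10 genes rose with DAP5 silencing and none fell: the antizyme OAZ1, the acetyltransferase SAT1 and the spermine oxidase SMOX. Of 14270 genes tested, 14.2% were called higher and 16.7% lower. SMOX had 7.32 and 8.76 CPM in shNSi and 20.4 and 22.2 CPM in shDAP5 heavy polysomes, a 3.02-fold rise (log2 change 1.59, SE 0.36, adjusted p = 0.000216 by edgeR). OAZ1 had 324 and 345 CPM against 625 and 758 CPM, a 2.35-fold rise (1.23, SE 0.37, adjusted p = 0.00627 by edgeR). SAT1 had 28.2 and 28.5 CPM against 60.2 and 56.4 CPM, a 2.34-fold rise (1.22, SE 0.33, adjusted p = 0.00247 by edgeR). In all 3 genes both shDAP5 cultures lay above both shNSi cultures, and the same held for OAZ2 and PAOX without a call, beside 29.04% of all genes tested.

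The other members gave smaller values in heavy polysomes. PAOX had 9.47 and 6.49 CPM in shNSi and 10.6 and 12.5 CPM in shDAP5 cultures, a log2 change of 0.71 (SE 0.37). OAZ2 had 42.3 and 57.2 CPM against 71.4 and 64.6 CPM, a log2 change of 0.64 (SE 0.33). SRM, at 144 and 198 CPM against 166 and 323 CPM, had a log2 change of 0.71 (SE 0.35). The adjusted p-values from edgeR were 0.125, 0.127 and 0.107 in that order, and the SRM groups overlapped. SRM passed in 1 of 14 alternatives, and its log2 change ranged from -0.30 to 1.05 over them. ODC1 had 247 and 223 CPM in shNSi and 193 and 349.6 CPM in shDAP5 heavy polysomes, a log2 change of 0.40 (SE 0.35). AMD1 had 148 and 98.3 CPM against 174 and 141 CPM, a log2 change of 0.54 (SE 0.33). Like these, SMS (0.24, SE 0.34) and AZIN1 (-0.16, SE 0.35) overlapped between cell lines. AZIN1 was at 0.08 with library sizes alone and 0.22 with limma. The median log2 change of the 10 genes was 0.67, beside 0.09 for all genes, and library sizes alone moved the latter to 0.34.

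These calls depended on the shNSi control and on single cultures. With the shNSi moderate pool as control 0 of 10 were called and SMOX was at 0.83, OAZ1 at 0.41 and SAT1 at 0.51. With heavy and moderate counts of shNSi summed, 0 were called and the values were 1.13, 0.73 and 0.79. Without shDAP5 replicate 2 none of the 3 passed, with adjusted p-values by edgeR of 0.0985 for SMOX, 0.161 for OAZ1 and 0.0993 for SAT1. The OAZ1 call was also lost without shNSi replicate 1 (0.0580 by edgeR) and without shNSi replicate 2 (0.0529 by edgeR).

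Heavy translation efficiency, heavy polysome mRNA relative to total mRNA of the same culture, sets these values against the amount of each mRNA. OAZ1 and SRM rose and no polyamine gene fell, beside 4.85% of 15374 genes called higher and 8.23% lower. The log2 ratios of heavy polysome to total mRNA of OAZ1 were -0.86 and -0.79 in shNSi and -0.17 and 0.37 in shDAP5 cultures. Those of SRM were -0.98 and -0.95 in shNSi and -0.49 and 0.34 in shDAP5 cultures. Neither gene overlapped between the cell lines, and in both the shDAP5 cultures lay further apart than the shNSi cultures. The interaction of fraction and shRNA was 1.07 for OAZ1 (SE 0.37, adjusted p = 0.0436) and 1.04 for SRM (SE 0.35, adjusted p = 0.0432) by edgeR.

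The calls of OAZ1 and SRM held in 5 of 15 alternatives each. With the shNSi moderate pool as control the values were 0.28 and 0.039, and with the moderate pool summed into the control 0.69 and 0.51, none called. Library sizes alone, no filter on low counts, offsets for coding length and no culture term also ended both calls. Both were lost with the replicate block (0.165 for OAZ1 and 0.145 for SRM by edgeR), and each was lost without shNSi replicate 1, without shNSi replicate 2 and without shDAP5 replicate 2. Without shDAP5 replicate 1 they stood at 1.37 and 1.48 and the SMOX value of 1.00 also passed.

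No catabolic gene was called in heavy translation efficiency. SMOX had log2 ratios of -0.10 and -0.21 in shNSi and 0.09 and 0.66 in shDAP5 cultures, a difference of 0.68 (SE 0.35, adjusted p = 0.191 by edgeR). SAT1 had ratios of -1.29 and -1.11 against -0.84 and -0.62, a difference of 0.62 (SE 0.34, adjusted p = 0.208 by edgeR). PAOX had ratios of 1.05 and 0.69 against 0.53 and 0.82, a difference of -0.06 (SE 0.37). For SMOX and SAT1 the groups were separate and for PAOX they overlapped. ODC1 (0.50, SE 0.34), SMS (0.50, SE 0.34) and OAZ2 (0.44, SE 0.33) were separate but did not pass, and AMD1 (0.42, SE 0.33) and AZIN1 (0.01, SE 0.35) overlapped. With OAZ1, SRM, SMOX and SAT1 this made 7 of 10 genes separate and higher, beside 26.1% of all genes. The median over the 10 genes was 0.50, beside 0.09 for all genes and 0.30 for all genes with library sizes alone.

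**Figure D3:**
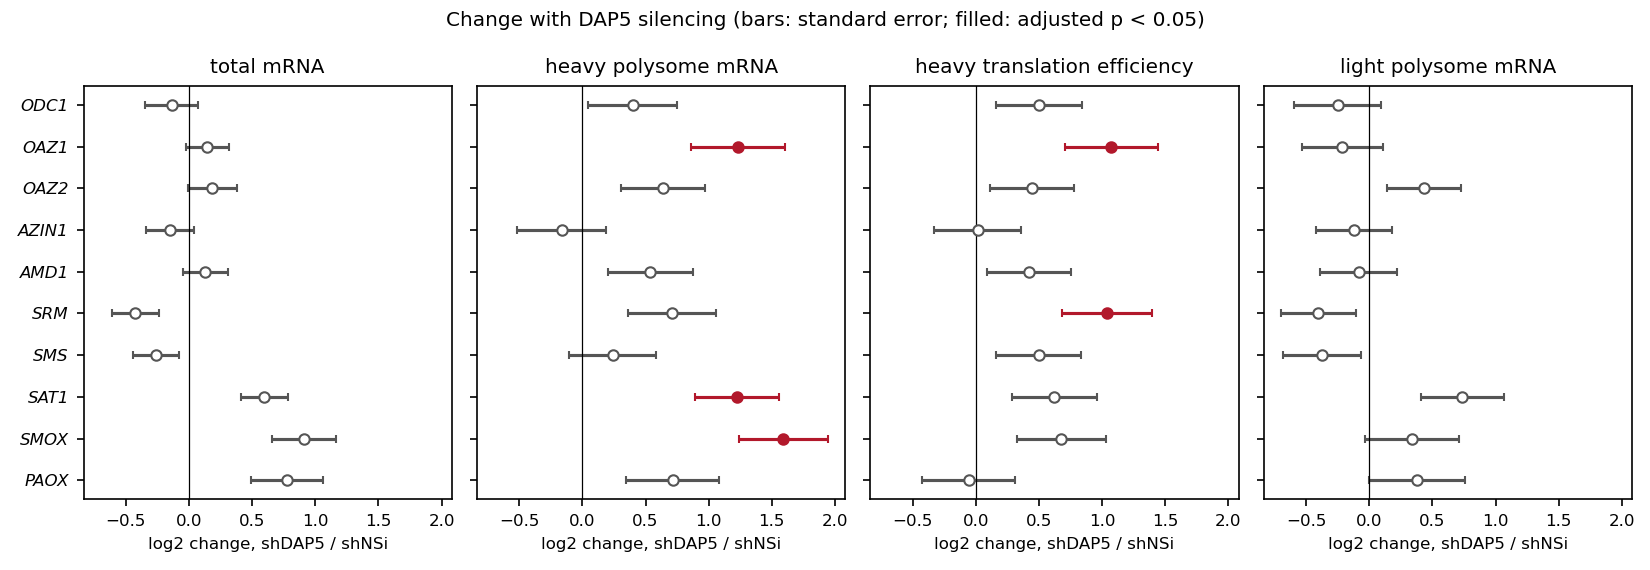
Log2 change of shDAP5 against shNSi for each polyamine gene in total mRNA, heavy polysome mRNA, heavy translation efficiency and light polysome mRNA, with bars of 1 standard error and filled points where the adjusted p was under 0.05. OAZ1, SAT1 and SMOX are filled in heavy polysome mRNA and OAZ1 and SRM in heavy translation efficiency, and no gene is filled in the other 2 panels.

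Coding length moved with these values. Across 12474 genes, which are not independent replicates, the change in heavy translation efficiency had a Spearman rho of -0.71 with coding length, and across 12589 genes the shNSi heavy over light difference had a rho of 0.64. On a smoothed curve of the change against coding length, a gene as short as SAT1 stood at 0.75, one as short as OAZ1 at 0.58, one like SRM at 0.36 and one like SMOX at -0.24. SMOX (0.92), SRM (0.68), ODC1 (0.58), OAZ1 (0.49) and SMS (0.33) lay above the curve by the amounts given, and SAT1 (-0.13) and OAZ2 (-0.25) lay below it. With offsets for coding length in each library, SMOX still rose in heavy polysomes (1.80, adjusted p = 0.00490 by edgeR). OAZ1 at 0.55 and SAT1 at 0.36 were then not called in heavy polysomes, nor were OAZ1 at 0.43 and SRM at 0.61 in heavy translation efficiency. The part that coding length or the composition of the shNSi heavy libraries plays in the differences was not tested further.

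**Figure D4:**
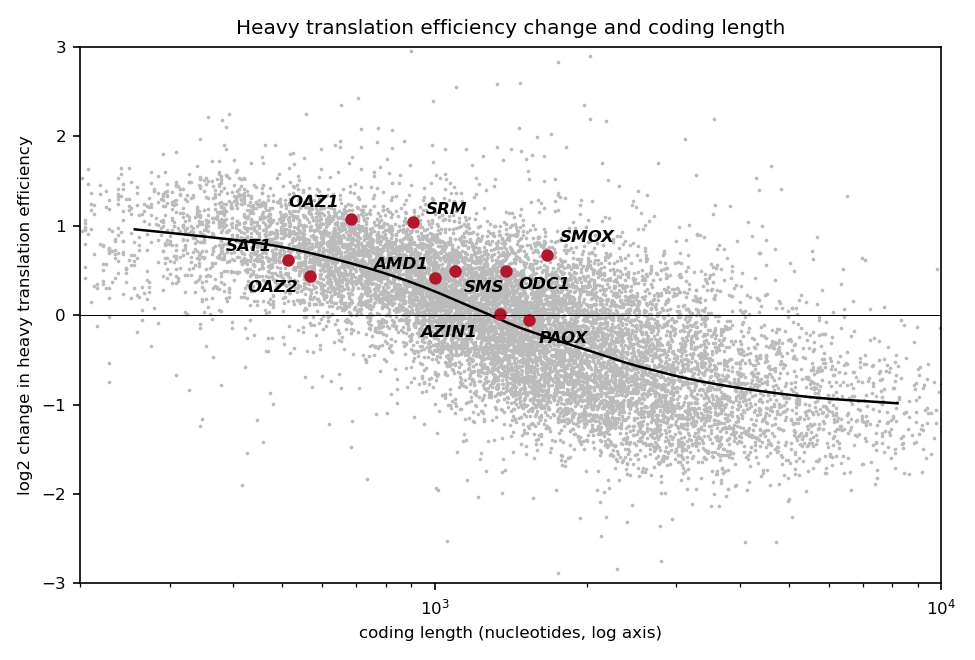
Change in heavy translation efficiency (log2, shDAP5 against shNSi) against coding length in nucleotides on a log axis, for genes with a known coding length (grey), the 10 polyamine genes (red) and the smoothed curve over all genes (black). SRM, OAZ1, ODC1 and SMOX lie above the curve and SAT1 and OAZ2 below it, and 143 genes lie outside the axes.

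With libraries taken by their titles, light polysomes gave no edgeR calls for any gene, polyamine genes included. By edgeR 0% of 15529 genes passed in light polysome mRNA and 0% of 15967 in light translation efficiency, with 527 higher and 803 lower, and 353 higher and 480 lower, at an unadjusted p under 0.05. DESeq2 called 105 genes in light polysome mRNA and 0 in light translation efficiency, and 0 polyamine genes in either. None of the 10 polyamine genes was under an unadjusted p of 0.05 in either comparison. SAT1 had 145 and 85.1 CPM in shNSi and 202 and 182 CPM in shDAP5 light polysomes, the highest value of the 10, with a log2 change of 0.74 (SE 0.33, adjusted p = 0.586 by edgeR). SRM had 525 and 515 CPM against 401 and 389 CPM, the lowest, with a log2 change of -0.40 (SE 0.30, adjusted p = 0.705 by edgeR). Both genes were separate between cell lines, as were OAZ2 and PAOX in the higher and SMS in the lower direction, beside 21.6% of all genes higher and 19.9% lower. In light translation efficiency the range was from -0.48 (SE 0.26) for SMOX to 0.28 (SE 0.29) for OAZ2. The median over the 10 genes was -0.10 in both comparisons, beside -0.01 and 0.01 for all genes. The code letters of the shDAP5 light libraries are those of the shNSi moderate pool. With that pool as control 2 polyamine genes were called higher in each comparison, SAT1 among them in light polysome mRNA at 2.23. OAZ2 had 59.8 and 51.0 CPM in that pool, against 170 and 161 CPM in shDAP5 light polysomes. The share of all genes called with that control is not given here.

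Of 25 further genes of polyamine metabolism, 19 or 20 were tested in each comparison. In heavy polysomes 3 of 19 rose and 3 fell with DAP5 silencing, shares near the 14.2% and 16.7% of all genes. SAT2, a relative of SAT1, rose by 1.16 (SE 0.33), APIP of the methylthioadenosine salvage route by 1.16 (SE 0.33), and EIF5A, the translation factor that carries the spermidine-derived hypusine, by 1.08 (SE 0.38). The transport genes that fell were the polyamine transporter gene ATP13A3, the amino acid transporter subunit gene SLC3A2 and the cationic amino acid transporter gene SLC7A1, with log2 changes of -1.28 (SE 0.34), -1.52 (SE 0.38) and -1.73 (SE 0.37). Their total mRNA was also lower, without a call, at -0.55, -0.81 and -0.72 in that order. Their heavy translation efficiencies of -0.75, -0.76 and -0.95 were not called either. With the shNSi moderate pool as control APIP stood at -0.18 and EIF5A at -0.24, the opposite direction. Of 14 alternatives the call held in 12 for SLC7A1, 10 for ATP13A3, 9 for SAT2 and APIP, 8 for SLC3A2 and 6 for EIF5A, and none of the 6 calls held without shDAP5 replicate 2. In heavy translation efficiency SAT2 (1.22, SE 0.34) and APIP (1.06, SE 0.33) rose and OAT, which links ornithine to proline and glutamate, fell by 1.03 (SE 0.34), beside 4.85% of all genes higher and 8.23% lower. With the moderate pool as control OAT stood at 0.59 and APIP at -0.25, the opposite direction. These 3 calls held in 6 of 15 alternatives each, and were lost with the replicate block and without shNSi replicate 1, shNSi replicate 2 or shDAP5 replicate 2. In total mRNA, in both light comparisons and in the change of heavy over light position, 0 of these genes passed. Their median log2 change was 0.29 in heavy polysomes and 0.36 in heavy translation efficiency. MTAP, the salvage enzyme gene, had 0 counts in all 14 libraries.

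Between heavy and light polysomes of shNSi cells 7 of 20 genes were higher and 7 lower, near the 30.5% and 31.1% of all genes. Higher in heavy polysomes were OAT (2.77), ARG2 (1.95), MAT2A (1.83), SLC3A2 (1.54), SLC7A1 (1.53), MRI1 (1.04) and ATP13A3 (0.87). Lower were OAZ3 (-3.01), SAT2 (-1.83), EIF5A (-1.74), EIF5A2 (-1.46), ADI1 (-1.25), APIP (-1.24) and AZIN2 (-0.81). The value of OAZ3, an antizyme relative, rests on few reads, with 4 and 2 counts in heavy and 33 and 29 in light libraries. With offsets for coding length EIF5A (-0.0014), SAT2 (-0.24), APIP (-0.30), ADI1, EIF5A2 and ATP13A3 were no longer called, and the AZIN2 call was lost with no filter, without shNSi replicate 2 and without shDAP5 replicate 1. Library sizes alone and limma each lost MRI1 and ATP13A3, the first also being lost without shNSi replicate 1 and the other without shNSi replicate 2. ARG2 and MAT2A, which supply ornithine and S-adenosylmethionine, were among the higher genes. In shDAP5 cells ARG2 (2.40), OAT (2.15), MAT2A (1.28), MRI1 (1.23), MAT2B (1.16) and ATP13A2 (0.77) were higher and OAZ3 (-1.91) and EIF5A2 (-1.15) lower, 6 and 2 of 20 beside 19.8% and 19.9% of all genes. With either shDAP5 culture left out only ARG2 and OAT of these 8 were called, EIF5A2 was lost with offsets for coding length, and ATP13A2 was called in 4 of 10 alternatives.

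Genes whose levels followed the polyamine genes most closely over the 14 libraries were found by Pearson's r of log2 CPM among 9388 genes. For OAZ1 they were KLHDC3 (0.99), SMIM7 (0.99) and THAP7 (0.98), for AMD1 EPB41L4B (0.93), AP1S3 (0.92) and BNIP2 (0.91), and for ODC1 ID3 (0.87), DPH2 (0.85) and PAQR4 (0.85). Among the 9 polyamine genes with a mean of at least 10 CPM, PAOX being left out, the highest value was 0.96, between OAZ2 and SAT1, followed by OAZ1 with SAT1 (0.88) and OAZ1 with OAZ2 (0.88). The 14 points are fractions of 4 cultures and share their gradients, so these values describe the libraries and carry no test.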

How the data were processed

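The authors deposited raw read counts per gene symbol for 14 libraries, as whole numbers without normalization. The submitters' processing notes name STAR 2.6.0a, limma and hg19. The deposited table is named for featureCounts and carries the letters rev, which may stand for counting on the reverse strand. The annotation and the treatment of reads that match several genes are not given in the sources used here. Over all libraries the named copies of AMD1 and SRM had at most 51 counts, and AZIN1-AS1, opposite AZIN1, had 186 against 103463 for AZIN1.

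Genes were filtered with filterByExpr, scaled by TMM and tested with the robust quasi-likelihood test of edgeR 4.0.16 in R 4.3.3, 1 fit of 4 libraries per fraction. Translation efficiency and heavy over light position were each fitted on 8 libraries with a term for each culture. All genes tested entered the Benjamini-Hochberg adjustment of each comparison, and the threshold was 0.05. Ratios per culture used CPM plus 0.02. Coding lengths, untranslated regions and sequences were matched by symbol to GENCODE release 29, which held all 10 genes and 81.1% of the genes tested in heavy translation efficiency. The scripts were tested on simulated counts.

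The polyamine genes, the 25 further genes and the tests were chosen with earlier results of these data known. Named are the 10 genes, EIF4G2, each further gene past the threshold in at least 1 comparison, MTAP, the markers of this line and of other cell types, AZIN1-AS1, and the 3 genes with the highest Pearson's r to ODC1, AMD1 and OAZ1. MTAP was named after its values were seen. Alternatives were DESeq2 1.42.0, library sizes alone, limma 3.58.1 on quantile-normalized log2 of CPM plus 1, other filters on low counts (none, or at least 10 in every library), coding-length offsets, the replicate block, all 14 libraries in 1 fit, no culture term, the shNSi moderate pool alone or summed into the control, and each culture left out.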

Additional observations from a re-analysis of the deposited data

Results flagged for a closer look

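The difference between heavy polysome and total mRNA differed between the cell lines, by the interaction of fraction and shRNA, for OAZ1 (log2 difference 1.07, SE 0.37, adjusted p = 0.0436 by edgeR) and for SRM (1.04, SE 0.35, adjusted p = 0.0432 by edgeR). Both calls held in 5 of 15 alternatives and were lost with the replicate block and without each of 3 of the 4 cultures (all but shDAP5 replicate 1). For OAZ1 the ratio was higher in shDAP5 in 2 of 2 cultures while total mRNA differed by 0.15 (SE 0.17). For SRM the uncalled total mRNA difference of -0.43 and the uncalled heavy polysome difference of 0.71 had opposite signs. Groups of 2 cultures were not tested for single samples that stand apart.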

How the results depend on the processing

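Each group had 2 cultures, which sets the precision of the comparisons, and SMOX and PAOX had low counts besides. Besides the 1 alternative in which SRM passed in heavy polysomes, counts of polyamine genes called higher differed from the values given above as follows. No filter gave 1 in total mRNA. In heavy polysomes coding-length offsets gave 1, and the moderate pool alone or summed into the control gave 0. Library sizes alone, no filter, coding-length offsets, the replicate block, no culture term and both moderate pool controls each gave 0 in heavy translation efficiency. The moderate pool gave 2 in light polysome mRNA and 2 in light translation efficiency. Library sizes alone, limma and coding-length offsets gave 0 for shNSi heavy against light, and library sizes alone and limma 4 lower for shDAP5. In the change of position DESeq2 gave 1, library sizes alone 2 and limma 1. The cause was not tested, and the shares of all genes called under these settings are not given in this paragraph.

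With 1 culture left out, the lone culture of its group is assumed to vary like the others. Polyamine genes called higher then ranged from 0 to 3 in heavy polysomes, 0 to 2 in light polysome mRNA (2 without shNSi replicate 1, 1 without shNSi replicate 2), 0 to 3 in heavy translation efficiency, 0 to 1 in light translation efficiency (0 to 1 lower, both 1 without shNSi replicate 1), 0 to 1 for shNSi heavy against light, 0 to 1 for shDAP5 (1 to 3 lower) and 0 to 1 in the change of position (1 without shNSi replicate 1). Changes of sign gave ranges of -0.54 to 0.16 for ODC1, -0.0046 to 0.26 for OAZ1, -0.041 to 0.40 for OAZ2 and -0.34 to 0.0098 for AZIN1 in total mRNA, -0.13 to 0.72 for ODC1 and -0.51 to 0.15 for AZIN1 in heavy polysomes, -0.30 to 0.32 for AZIN1 and -0.24 to 0.12 for PAOX in heavy translation efficiency, -0.18 to 0.72 for OAZ2 in light translation efficiency and -0.44 to 0.22 for AZIN1 in the change of position.

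Other changes of sign, all of values not called above unless named, were as follows. With the moderate pool as control, heavy polysome values were ODC1 -0.055, AMD1 -0.061, SRM -0.30, SMS -0.76, APIP -0.18 and EIF5A -0.24, SRM in light polysomes 0.40, and heavy translation efficiencies AZIN1 -0.17, AMD1 -0.15, SMS -0.42, SAT1 -0.043, SMOX -0.069, PAOX 0.23, OAT 0.59 and APIP -0.25, where APIP, EIF5A and OAT had been called. Summed into the control it gave SMS -0.39 in heavy polysomes and PAOX 0.16 in heavy translation efficiency. Coding-length offsets gave OAZ2 -0.17 in heavy polysomes, OAZ2 -0.31, SAT1 -0.17 and PAOX 0.071 in heavy translation efficiency, and ADI1 0.25, EIF5A2 0.29 and ATP13A3 -0.18, all called above, for shNSi heavy against light. Library sizes alone gave AZIN1 0.083 in heavy polysomes and 0.15 in the change of position, and PAOX 0.16 in heavy translation efficiency. Limma gave AZIN1 0.22 in heavy polysomes and 0.20 in the change of position. AZIN1 in heavy translation efficiency was -0.050 with DESeq2, -0.013 with no filter and -0.020 with no culture term.

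Same-numbered cultures deviated with correlations of -0.12 in total mRNA, 0.06 in heavy and 0.05 in light polysomes, -0.28 in heavy and 0.01 in light translation efficiency, so the numbers were not taken to pair the cultures. With the replicate block 3 polyamine genes were called higher in heavy polysomes, 0 in heavy translation efficiency (688 of all genes against 2012), and 0 in total mRNA and both light comparisons. With the numbers crossed, chosen after seeing the data, 0 were called in total mRNA (71 of all genes against 53) and 2 in heavy translation efficiency (4133 of all genes).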
